A study of Mus musculus with 3 samples.

Results

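The data described here are the step from the first to the second day after cyclophosphamide in whole mouse skin, taken as the ratio of the day 2 library to the day 1 library over all UniGene clusters, the transcript groups to which the authors assigned their tags. The 2 libraries compared are 2 of the 3 in the series. Clusters were chosen by no measured value: of 20595 clusters in any table, 19363 were listed at day 1 or day 2, 15774 were listed on both days, and 13812 passed a minimum of 15 tags in the sum of the 3 libraries and were tested. Male C57BL/6 mice, 2 months old, had been depilated 9 days before a single intraperitoneal injection, and the groups were untreated skin (day 0), skin 1 day after cyclophosphamide and skin 2 days after it. The dose was 150 mg/kg by the design text, while the sample labels write it per km. Each group had 1 library, and how many mice went into a library is not stated in the labels. A difference between the 2 days therefore has no replicate check, and the drug, the extra day of hair growth and the individual mice cannot be told apart.

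Cyclophosphamide is a prodrug that the liver activates to an alkylating mustard, which crosslinks DNA and is most toxic to dividing cells. Depilation pushes resting hair follicles into anagen, the growth phase, in which matrix cells of the hair bulb divide rapidly and differentiate into the hair shaft and into the inner root sheath, the sleeve that moulds the shaft. Growing follicles are therefore a classic target of this drug, and hair loss is its best known effect in skin. Whole skin also holds epidermis, dermal fibroblasts, fat, vessels with blood, resident immune cells and the thin skeletal muscle beneath the dermis of mice. In bulk tissue, fewer cells of a type and less RNA per cell cannot be told apart.

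In digital gene expression each polyadenylated transcript is counted through a tag of 21 bases, which starts at a CATG site cut by the enzyme NlaIII, usually the last such site before the poly(A) tail. The tags of 8 genes on which the results turn are shown 5′ to 3′, with the CATG site in capitals, so that the molecule behind a count can be seen.
Krt25: CATGcaatgtgtctgggaaat
Krt35: CATGcctcccctgccttcctg
Barx2: CATGggcctagagaagaaatt
Ifit3: CATGtagggaatggagcttaa
Ccl2: CATGaatactaaaatttctta
Trem2: CATGctctcccctcctccacc
Myod1: CATGctgtgtagtgcaacaaa
Aspn: CATGtgttttttttaaactga
In the GRCm38 build with GENCODE M21 transcripts, the Krt25 tag lay at chr11:99316033-99316053 on the minus strand, in the 3′ UTR in exon 8 of 8. It held 96.5% of that gene's tags over days 1 and 2. The Krt35 tag was at chr11:100092591-100092611 on the minus strand, in the coding part of exon 7 of 7. Barx2 was read from chr9:31858764-31858784 on the minus strand, in the coding part of exon 2 of 4. The Ifit3 tag, the one tag of that gene, lay in the 3′ UTR at chr19:34588647-34588667 on the plus strand, in exon 2 of 2. The Ccl2 and Trem2 tags were likewise in the 3′ UTR of the last exon on the plus strand, at chr11:82037250-82037270 (exon 3 of 3) and chr17:48352085-48352105 (exon 5 of 5). Myod1 was read at chr7:46378994-46379014, in the 3′ UTR in exon 3 of 3, and Aspn at chr13:49567479-49567499, in the 3′ UTR in exon 8 of 8, both on the plus strand.

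The tables held 2859653 tags at day 1, 2636804 at day 2 and 2731787 at day 0. After scaling by TMM, a normalisation that sets the bulk of genes level, the library sizes used were 2689485 tags at day 1 and 2722466 at day 2, so raw tags of the 2 days can be set side by side. Of 9 genes used to check the tissue label, Krt85 was not tested: Krt5, Krt14 and Krt10 of the epidermis, Col1a1 and Col1a2 of the dermis, and Krt25 and Krt71 of the hair follicle were each listed on all 3 days with at least 231 tags, while Krt1 had only 15, 16 and 25 tags. Levels are given as tags per 1000000 (CPM) of the scaled library size. Ratios are log2 values of day 2 over day 1 with a pseudocount of 0.5 tags, and their brackets are exact 95% intervals of counting error alone. Brackets after the median of a list are instead 95% intervals by rank over its members. Those members were read in the same 2 libraries and can move together, so such an interval does not measure variation between mice. A gene was called at a Benjamini-Hochberg adjusted p of 0.001 or less in a two-sided exact conditional binomial test of the 2 read counts, provided that it was also at least 2-fold higher or lower. That test compares 2 libraries, not 2 conditions.

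Between the 2 treated days a small part of the skin transcriptome moved, in both directions. Genes called lower at day 2 included keratins of the inner root sheath, a few hair shaft keratins, haemoglobins and interferon-induced genes such as Isg15. Genes called higher included chemokines that attract monocytes, macrophage receptors, regulators of muscle regeneration and small proteoglycans of the dermis. Of the 13812 clusters, 249 were called higher at day 2 (1.80%) and 152 lower (1.10%). The median ratio of all clusters was -0.02, and 87.3% of clusters were within 2-fold either way. Calls at 4-fold or more numbered 64 higher and 27 lower. Another 824 clusters were past 2-fold higher and 525 past 2-fold lower without a call. Scaling by the tags assigned to clusters moved the median of all clusters to 0.12 and gave 371 higher and 100 lower, so that 78.8% of the calls were higher against 62.1% here. Under it the calls of Krt71, Tchh, Sfn, Cux1, Wnt3, Ovol1, Dusp2, Dgat2 and Lig3, all lower, were lost. With a coefficient of variation between mice assumed at 0.2, a value these data cannot supply, 57 clusters were called higher and 33 lower at an adjusted p of 0.05 in edgeR's exact test. These included 11 muscle stress genes, 6 chemokines or cytokines, 3 macrophage markers and 3 fibroblast genes on the higher side. On the lower side were 4 erythroid, 2 inner root sheath, 2 hair shaft and 2 interferon-induced genes. At an assumed 0.4 only 2 remained, Ankrd1 and Myog, both higher.

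**Figure D1:**
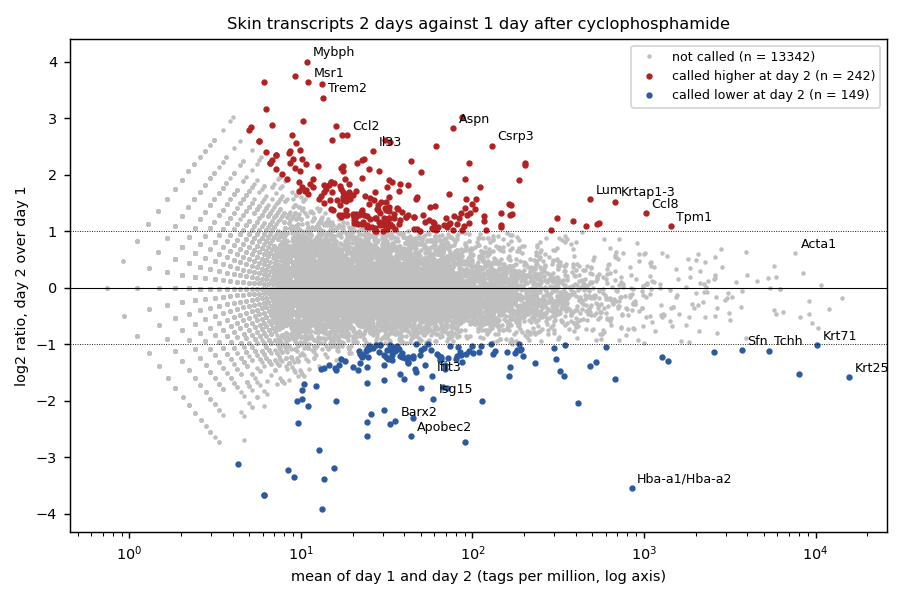
Log2 ratio of day 2 over day 1 (vertical axis) against the mean level on the 2 days (tags per 1000000, log axis) for clusters listed on both days, with 242 called higher in red, 149 called lower in blue and the rest in grey; dotted lines mark 2-fold. Krt25, Krt71 and Tchh lie at the right below the lower line, and Ccl8, Lum, Krtap1-3 and Tpm1 lie above the upper one.

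The tags of a cluster differ in sequence but share a library. Several can belong to the same CATG site, beside a far more abundant tag. At site 1 of Krt25, for example, the main tag had 61426 and 20731 reads at days 1 and 2, and another had 51 and 13. Agreement among such tags is not agreement of separate sites. Where a called cluster had 2 or more tags of 20 or more reads, all of them moved the way of the sum in 63 of 67 clusters called higher and in 53 of 55 called lower, against 1546 of 3051 clusters without a call. The direction of a call is set by the sum of its tags, so these shares are a description. All 14 such tags of Krt25, all 15 of Krt71 and all 9 of Tchh were lower at day 2, several of each at the same site. Vim and Tpm1 were mixed: of 4 tags of each, 2 moved the other way, and without its most abundant tag the ratio was -0.35 for Vim and -0.21 for Tpm1. Other calls also rested on 1 tag, and without it the ratio shrank to -0.20 for Mvk and Sprr1b, -0.22 for Lig3, -0.31 for Nfil3, -0.52 for H2afj, -0.59 for Krt73, 0.45 for Neb, 0.52 for H2-Ab1, 0.61 for Serping1 and 0.78 for Lyve1, none of them called. Ccl2, Ccl12, Trem2, Actc1 and Mybph had 1 tag alone, so nothing was left to compare. Of all called clusters, 182 called higher and 97 called lower had fewer than 2 tags of 20 or more reads. Without the most abundant tag of each cluster, calls fell, on the fewer clusters that then had tags left. They went from 10 to 3 for chemokines and cytokines and from 8 to 1 for macrophage markers. Interferon-induced genes went from 5 to 0, the inner root sheath from 9 to 5 and erythroid genes from 6 to 1.

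**Figure D2:**
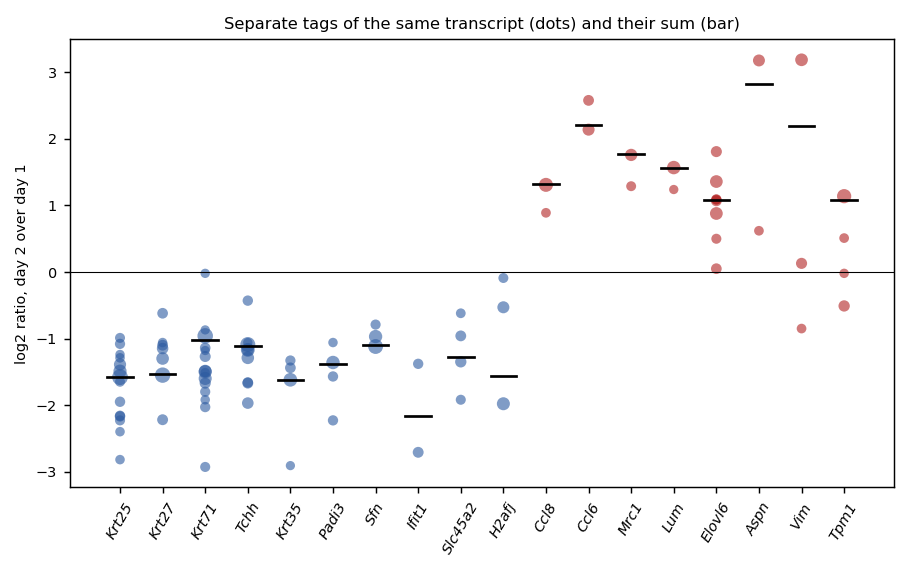
Log2 ratio of day 2 over day 1 for each separate tag with 20 or more reads over the 2 days that was listed on both days (dots, larger for more reads) and for the sum of the gene's tags (bar), for 18 genes, blue where the gene was called lower and red where called higher. The tags of Krt25, Krt27, Krt71, Tchh and Krt35 all lie below 0, those of Elovl6, Lum and Ccl6 all above it, and those of Vim and Tpm1 on both sides.

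Genes of the inner root sheath that were called were all lower at day 2. The keratins of this sheath, the type I chains Krt25, Krt27 and Krt28 and the type II chains Krt71, Krt72 and Krt73, pair into the filaments of the sheath layers, trichohyalin (Tchh) is the matrix protein that hardens between them, and Padi3 is an enzyme that converts arginines of trichohyalin to citrulline. Of 21 listed genes 20 were tested, and 9 were called lower (45%, beside 1.10% of all clusters) and 0 higher. The median ratio was -0.97 (95% interval over members -1.14 to -0.62), and 18 of 20 members were below 0. Krt25 had 45778 tags at day 0, 63618 at day 1 and 21484 at day 2, so the day 2 value was the lowest and day 1 the highest. Its ratio was -1.58 (-1.61 to -1.56). Krt27 went from 32115 to 11197 tags, a ratio of -1.54, after 18120 at day 0. The type II partner Krt71 had 36929 and 18488 tags on the 2 days and a ratio of -1.02, which fell just short of 2-fold under 3 other scalings.

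Trichohyalin itself went from 19613 to 9150 tags, a ratio of -1.12, and Padi3 from 1888 to 731, a ratio of -1.39. Krt73 fell by 1.23, Krt72 by 1.18 and Krt28 by 1.14 on the log2 scale, and cornulin (Crnn), a relative of trichohyalin, fell by 1.13. Not every member of the list moved this way. The cysteine protease inhibitor Cst6 had 8573, 14763 and 17087 tags at days 0, 1 and 2, a ratio of 0.19, and the trichohyalin-like gene Tchhl1 had 1909 and 2071 tags, a ratio of 0.10. Summed over the 20 members the list stood at 55020 CPM at day 0, 84000 at day 1 and 41530 at day 2. In this sum, then, day 1 was above the untreated skin and day 2 below it. Not every member shared that pattern, with Cst6 highest at day 2.

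Among hair shaft genes, 3 keratins fell, while most keratin-associated proteins were not called. Keratins of the shaft are switched on in sequence as cells leave the matrix, with Krt35 among the earliest and in the cortex and cuticle precursors, and keratin-associated proteins (KAPs), the sulphur-rich or glycine- and tyrosine-rich proteins that crosslink them, follow higher up. Of 14 shaft keratins tested, 3 were called lower (21.4%, beside 1.10% of all clusters) and 0 higher, with a median of -0.56 (-1.32 to -0.27). Krt35 had 3968, 2747 and 901 tags at days 0, 1 and 2, falling on each day, and its ratio was -1.63 (-1.74 to -1.52). Krt36 went from 659 to 224 tags (ratio -1.57), and Krt87, whose tags are shared with other genes, from 334 to 135 (ratio -1.32). Among keratins that were not called, Krt31 had 6168 and 5061 tags (ratio -0.30), Krt86 had 4351 and 3414 (ratio -0.37) and the cuticle keratin Krt82 had 650 and 689 (ratio 0.07).

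The KAPs as a group had a median close to that of all clusters. Of 43 clusters of this family tested, 1 was called higher and 1 lower, shares of 2.33% each beside 1.80% and 1.10% of all clusters, and the median was 0.09 (-0.15 to 0.17), or 0.23 with the scaling by assigned tags. Their summed level was 81970 CPM at day 1 and 81400 at day 2, up from 60370 at day 0. Krtap1-3, a high-sulphur KAP, went from 947 to 2756 tags, a ratio of 1.52, with 1165 at day 0. Krtap10-4 went the other way, from 5295 to 2188 tags, but its tags are shared with near copies, and on tags of 1 gene alone its ratio was 0.14. Within the family the 6 members of subfamily 4 had a median of 0.43 (range 0.15 to 1.04) and the 4 of subfamily 6 a median of 0.20 (0.15 to 0.38), whereas the 3 of subfamily 3 had -0.18 and the 3 of subfamily 5 -0.39. Single members of subfamilies 11 and 12 had ratios of -0.93 and -0.91.

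**Figure D3:**
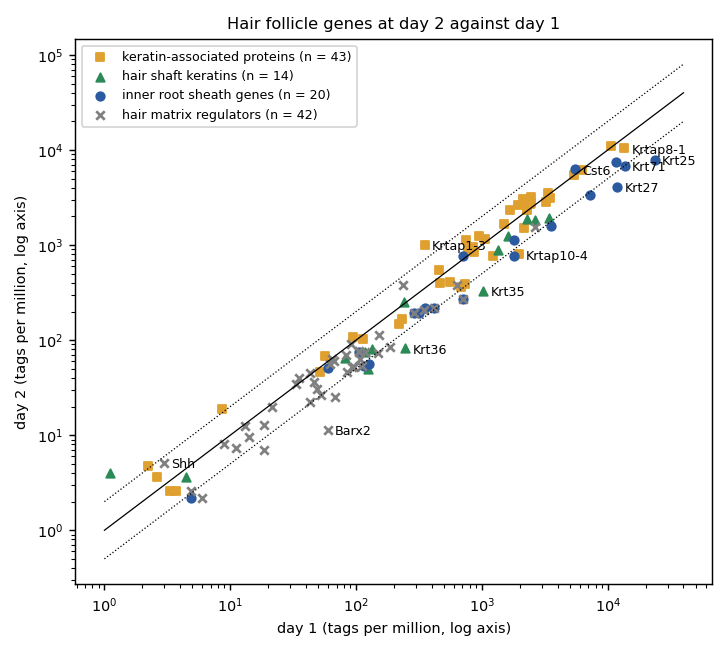
Level at day 2 against level at day 1 (tags per 1000000, log axes) for genes of 4 hair follicle lists listed on both days; the solid line marks equal levels and the dotted lines 2-fold. Inner root sheath genes (blue circles) such as Krt25 and Krt27 lie on or below the lower dotted line, most keratin-associated proteins (orange squares) lie along the solid line, and Barx2 and Krt35 lie below the lower one.

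Transcription factors and signals of the hair matrix had ratios mostly below 0. These regulators choose between shaft and sheath fates and drive the keratin genes. Of 43 tested, 6 were called lower (14%, beside 1.10% of all clusters) and 1 higher (2.33%, beside 1.80%). Ratios were below 0 for 37, and the median was -0.59 (-0.82 to -0.34). Barx2, a homeobox factor expressed in the follicle, had 327, 160 and 31 tags at days 0, 1 and 2, so it fell by a larger factor on the second day, with a ratio of -2.37 (-2.99 to -1.82). Nfil3, a basic leucine zipper repressor, went from 183 to 68 tags (ratio -1.44). Padi3 and Wnt3 are also on this list. The zinc finger factor Ovol1, which follows Wnt signalling in epithelia, went from 496 to 230 (ratio -1.12), and Cux1, a homeobox factor of the sheath, from 403 to 199 (ratio -1.03). Dlx3 (1111 and 596 tags, ratio -0.92), Foxn1 (289 and 173, ratio -0.76), Msx2 (929 and 560, ratio -0.75), Hoxc13 (407 and 308, ratio -0.42) and Gata3 (772 and 523, ratio -0.58) did not reach 2-fold. The one gene called higher was Fgf7, a growth factor of the dermal papilla, with 9 tags at day 0, none listed at day 1 and 15 at day 2.

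In the Wnt pathway, which maintains matrix growth, 3 of 45 genes tested were called lower (6.67%) and 1 higher (2.22%). The shares of all clusters were 1.10% lower and 1.80% higher, and the median of the pathway was -0.27. The ligand Wnt3 went from 299 to 146 tags (ratio -1.05), Wnt11 from 158 to 68 (ratio -1.23) and the feedback inhibitor Nkd2 from 240 to 105 (ratio -1.21), whereas the secreted antagonist Dkk2 went from 7 to 32 (ratio 2.10). The ligands Wnt10a (259 and 141 tags, ratio -0.89) and Wnt10b (16 and 6 tags, ratio -1.36, adjusted p = 0.17 in the exact test) were not called, and the Wnt target Axin2 had 134 and 110 tags. Sonic hedgehog (Shh), the signal from the matrix to the papilla, had 68 tags at day 0 but only 8 and 14 on the treated days, too few to show a step between them (ratio 0.75, -0.56 to 2.25). Its target Gli1 had 73, 35 and 36 tags, nearly equal on the treated days. Of the 15 Hedgehog genes tested, 1 was called lower (6.67%), Kif7, a ciliary regulator of Gli factors, with 18 tags at day 1 and none listed at day 2. Among 34 BMP and TGF-beta genes, 2 were called higher (5.88%), among them Ltbp1, which stores TGF-beta in the matrix, and 0 lower.

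Among 24 clusters of melanogenesis genes tested, 1 was called lower (4.17%, beside 1.10% of all clusters), the pigment granule transporter Slc45a2 with 110, 251 and 105 tags (ratio -1.27). Pmel, the granule fibril protein, had 540 and 691 tags (ratio 0.34), and Tyrp1 22 and 27. For outer root sheath and stem cell markers, 1 of 23 was called higher (4.35%, beside 1.80%): Itgb4, the hemidesmosome integrin, with 226 and 572 tags (ratio 1.32). Krt15 (2789 and 2584 tags), Lrig1 (371 and 419) and Krt17 (11035 and 8799) were not called.

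The interferon-induced genes that were called had their highest level at day 1. Genes of this kind are switched on through the interferon-stimulated response element, and they encode proteins that block viral RNA and protein synthesis. Of 45 listed genes 32 were tested, as 33 clusters. Of these, 5 were called lower (15.2%, beside 1.10% of all clusters) and 0 higher. The median was -0.51 (-1.22 to -0.12), and 27 were below 0. Isg15, a ubiquitin-like modifier, had 47, 253 and 65 tags at days 0, 1 and 2, with a ratio of -1.97 (-2.39 to -1.58), and adjusted p = 6.3e-26 by the exact test, so day 2 came back near the untreated level. Ifit3, which binds foreign RNA with its partners, had 22, 233 and 79 tags and a ratio of -1.57. Ifit1 had 20, 135 and 30 tags (ratio -2.17), Ifit2 had 12, 44 and 11 (ratio -1.97), and the RNA sensor Ifih1 had 19, 86 and 37 (ratio -1.22). In all 5 the day 1 library stood above both others.

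Members of lower counts pointed the same way without a call, among them Rsad2 with 42 and 14 tags, Oasl1 with 29 and 12, Usp18 with 19 and 8 and Mx1 with 24 and 11. Outside the list, the mitochondrial nucleotide kinase Cmpk2, the neighbour of Rsad2 on chromosome 12, went from 112 to 18 tags (ratio -2.62), with 33 at day 0. Other members were not lower: Bst2 had 91 and 92 tags, Ifi35 121 and 121, and Ifi27l2a 680 and 1244 (ratio 0.85, short of 2-fold). Ratios above 0 were found for 6 clusters of the list, the highest 1.22, none of them called. Scaling by assigned tags called 1 cluster of the list higher. Irf7, the factor that amplifies interferon production, had 166 and 122 tags (ratio -0.46). With Ifi27l2a included, the summed level of the list was 1258 CPM at day 1 and 1207 at day 2, with 525 at day 0. The receptors and sensors upstream of interferon responses had 0 of 13 called.

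Promoters of 3 of the 5 interferon-induced genes that fell carried a match to the core of this element, searched as GAAANNGAAA on both strands in the 250 bases before the start of the gene in RefSeq (GRCm38.p6). The match is shown in capitals in windows of 40 bases, 5′ to 3′ on the strand of each gene, because this is the kind of site through which interferon is known to act.
Ifit1: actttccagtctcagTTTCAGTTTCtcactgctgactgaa
Ifit3: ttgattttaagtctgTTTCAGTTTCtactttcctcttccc
Isg15: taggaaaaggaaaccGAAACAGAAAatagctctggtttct
These windows lie at chr19:34640789-34640828, chr19:34583392-34583431 and chr4:156200860-156200899. The motif was found before 263 of 8766 tested genes with a promoter sequence (3%), before 9 of 22 interferon-stimulated genes tested (40.9%), before 5 of 105 genes called lower (4.76%) and before 6 of 153 called higher (3.92%). A match describes these letters only.

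The chemokines that were called, attractants that recruit leukocytes, moved opposite to the interferon genes that were called. Of 37 genes on a list of chemokines and cytokines 26 were tested, as 27 clusters. Of these, 10 were called higher, or 37.0% beside 1.80% of all clusters, and 0 lower. The median was 1.06 (0.37 to 1.47). The called members included the cytokine Il33. The ligands of the monocyte receptor Ccr2 rose together. Ccl2 had 4, 13 and 88 tags at days 0, 1 and 2 and a ratio of 2.70 (1.89 to 3.71). Ccl12 had 8, 52 and 220 tags (ratio 2.05) and Ccl7 had 47, 41 and 197 (ratio 2.23), so Ccl12 and Ccl2 were higher on each later day while Ccl7 stepped up only on the second. Ccr2 itself went from 32 to 78 tags (ratio 1.25). Ccl8, made by skin macrophages, went from 1586 to 4005 tags (ratio 1.32), and the myeloid chemokines Ccl6 and Ccl9 from 91 to 426 (ratio 2.20) and from 239 to 670 (ratio 1.47).

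Il33, an alarm cytokine released from damaged epithelium and stroma, had 21, 22 and 121 tags and a ratio of 2.42 (1.78 to 3.17), so that the day 2 library alone was high. Cxcl13, a B cell attractant, went from 25 to 98 tags (ratio 1.93), and Ccl21a, made by lymphatic endothelium, from 105 to 221 (ratio 1.05), close to its 237 tags at day 0. Chemokines that resting keratinocytes make were not called: Cxcl14 had 2966 and 3224 tags and Ccl27a 305 and 394. The neutrophil attractants Cxcl1, Cxcl2 and Cxcl5 were not tested, and Il1b had only 5 and 14 tags.

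Several macrophage markers rose beside the chemokines. Of 20 tested, 8 were called higher (40%, beside 1.80% of all clusters) and 0 lower, with a median of 0.98 (0.72 to 1.56). Ratios were above 0 for 17 members and below 0 for 3, the lowest -0.74, none of the 3 named here. With a minimum ratio of 1.5 instead of 2, 11 were called higher and 1 lower. Summed levels were 935.9, 1179 and 1669 CPM at days 0, 1 and 2. The log2 ratio of the sums of days 2 and 1 was 0.50. Trem2, a lipid-sensing receptor of macrophages that clear debris, had 7, 6 and 67 tags, a ratio of 3.36 (2.27 to 4.96) and adjusted p = 2.1e-12 by the exact test. Msr1, a scavenger receptor for modified lipoproteins, had 11, 4 and 56 tags (ratio 3.63), and the mannose receptor Mrc1 had 162, 134 and 465 (ratio 1.77). For these 3 genes the day 2 library alone was high. The Fc receptor Fcgr3 went from 125 to 374 tags (ratio 1.56) with its signalling chain Fcer1g from 261 to 643 (ratio 1.28), the oxidase subunit Cybb from 34 to 77 (ratio 1.15), lysozyme Lyz2 from 33 to 77 (ratio 1.19) and Ms4a7 from 63 to 190 (ratio 1.57). Other defining genes were not called: Csf1r had 164 and 219 tags, Adgre1 43 and 72 and Cd163 246 and 470. Cd68, Cd14, Itgam and Aif1 were not tested. The part that a larger number of these cells may have in the chemokine result was not tested.

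Other white cells were measured through few genes. The pan-leukocyte phosphatase Ptprc went from 17 to 78 tags (ratio 2.15), the only call among 9 lymphocyte markers tested (11.1%, beside 1.80% of all clusters), while the T cell genes Cd3d (10 and 14 tags), Lck (16 and 22) and Cd2 (14 and 7) were few. Of 3 neutrophil markers tested 0 were called, with S100a9 at 65 and 83 tags. The class II gene H2-Ab1 had 1263, 638 and 1465 tags (ratio 1.18), so day 2 was near day 0; it was the only call among 8 dendritic and Langerhans cell markers (12.5%), while H2-Eb1 had 496 and 567 and the Langerhans cell lectin Cd207 42 and 27. Among 10 mast cell markers 2 were called higher (20%, beside 1.80% of all clusters). They were the proteases Cma1 (141, 84 and 174 tags at days 0, 1 and 2, ratio 1.03) and Cpa3 (59, 56 and 117, ratio 1.04). Cd300ld, an immunoglobulin-like receptor of myeloid cells outside these lists, went from 12 to 82 tags (ratio 2.71).

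Complement genes were among those called higher. Of 23 complement and coagulation genes tested, 7 were called higher (30.4%, beside 1.80% of all clusters) and 1 lower (4.35%, beside 1.10%). The median was 0.90 (0.35 to 1.11). The central component C3 had 61, 91 and 211 tags (ratio 1.19), factor B (Cfb), its partner in the alternative pathway, 122, 153 and 407 (ratio 1.39), properdin (Cfp), which stabilises their complex, 116 and 254 (ratio 1.11), and the receptor C3ar1 35 and 100 (ratio 1.48). Serping1, the inhibitor of the first component, went from 499 to 1180 tags (ratio 1.22). Coagulation factor XIII (F13a1) also rose, from 101 to 213 tags (ratio 1.06). Procr, the endothelial protein C receptor, was the gene called lower, from 203 to 41 tags (ratio -2.31), but its other tags, with the most abundant one left out, had a ratio of 0.49.

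**Figure D4:**
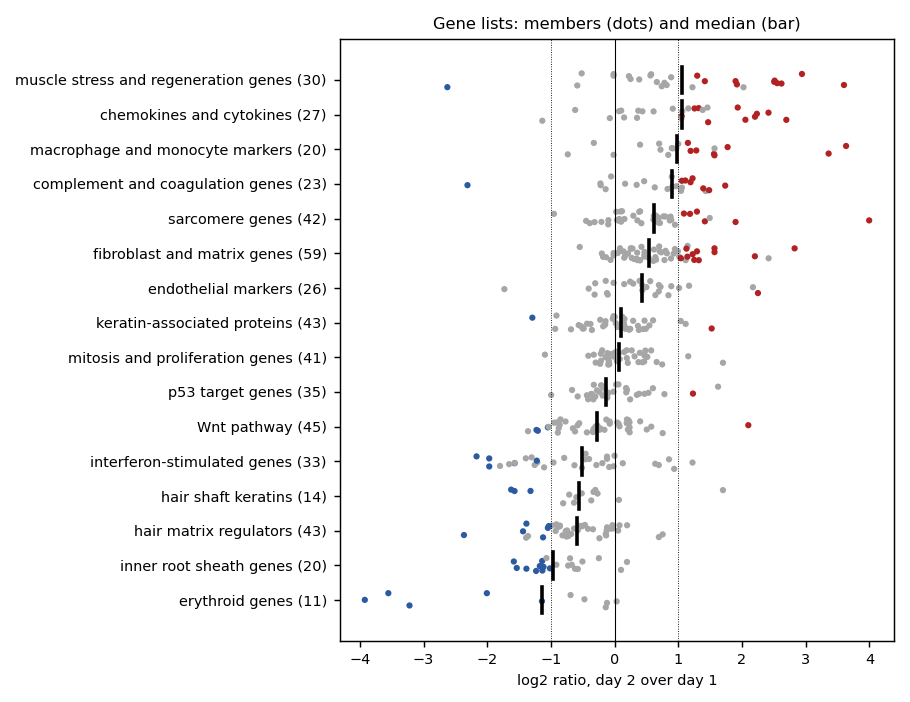
Log2 ratio of day 2 over day 1 for the members of 16 gene lists (dots; red called higher, blue called lower, grey not called) with the median of each list as a black bar and the number of clusters tested in brackets; genes not listed on one of the days have no dot but count in the median. Muscle stress genes, chemokines and cytokines, and macrophage markers lie mostly to the right of 0, and inner root sheath and erythroid genes to the left.

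Several of the largest ratios belonged to muscle regeneration genes. The skin of mice includes the panniculus carnosus, a sheet of striated muscle, and the genes in question are those that myoblasts and damaged or denervated fibres switch on. Of 40 listed genes 30 were tested, and 13 were called higher (43.3%, beside 1.80% of all clusters) and 1 lower (3.33%, beside 1.10%). The median was 1.05 (0.57 to 2.02), or 0.82 over the 27 listed on both days. Ankrd1, a stretch-responsive nuclear protein of muscle, had 2 tags at day 0, was not listed at day 1 and had 396 at day 2. Myogenin (Myog), which commits myoblasts to fuse, had 2, none listed and 57. Its upstream factor Myod1 had 9, 11 and 71 tags, a ratio of 2.62 (1.75 to 3.74) and adjusted p = 3e-10 by the exact test. The perinatal myosin Myh8 had 7 tags at day 0, none listed at day 1 and 27 at day 2. In each of these the day 2 library alone was high.

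Further members of the same list included the cardiac actin Actc1, made in regenerating fibres, with 17, 5 and 67 tags (ratio 3.60), the acetylcholine receptor subunit Chrna1 with 7 and 44 (ratio 2.55) and the Z-disc proteins Csrp3 with 164, 104 and 603 (ratio 2.51), Ankrd2 with 49 and 284 (ratio 2.51) and Xirp1 with 6 and 50 (ratio 2.94). The chaperone Hspb7 went from 102 to 392 tags (ratio 1.92), filamin C (Flnc) from 266 to 662 (ratio 1.30) and the pump regulator sarcolipin (Sln) from 37 to 141 (ratio 1.90). Outside the list, the related ankyrin gene Ankrd23, read through shared tags, went from 51 to 424 (ratio 3.03) and Ppp1r27, a phosphatase subunit, from 23 to 145 (ratio 2.61). The ubiquitin ligases of muscle wasting were not called, with Fbxo32 at 108 and 143 tags and Trim63 at 66 and 106. The one gene called lower was Apobec2, a muscle member of the cytidine deaminase family, with 413, 204 and 33 tags (ratio -2.63), which rests on 1 tag, since its other tags had a ratio of -0.02.

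Genes of the contractile apparatus had smaller ratios. Of 42 sarcomere genes tested 7 were called higher (16.7%, beside 1.80% of all clusters) and 0 lower, and the median was 0.61 (0.15 to 0.71). Summed over the list, the level was 16340, 24660 and 32580 CPM at days 0, 1 and 2. Skeletal actin Acta1 had 13137, 16236 and 25065 tags (ratio 0.61), the fast myosin Myh4 had 20, 73 and 54 (ratio -0.45), and troponin Tnnt3 had 8613 and 8126 (ratio -0.10). Mybph, a myosin-binding protein, went from 3 to 56 tags (ratio 4.00), and the giant proteins nebulin (Neb) and Xirp2 rose with ratios of 1.18 and 1.42. Xirp2 had 148, 53 and 144 tags at days 0, 1 and 2, so its day 2 count was near that of day 0. How much muscle each skin sample held was not tested, and the sum over the regeneration list was 1105 CPM at day 1 and 2133 at day 2.

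Fibroblast and matrix genes had ratios mostly above 0, few of them past 2-fold. Of 59 tested, 11 were called higher (18.6%, beside 1.80% of all clusters) and 0 lower. Ratios were above 0 for 52, and the median was 0.53 (0.35 to 0.78). The largest step was that of asporin (Aspn), a small leucine-rich proteoglycan that binds collagen and TGF-beta, with 178, 51 and 369 tags at days 0, 1 and 2 and a ratio of 2.83 (2.41 to 3.29). Without its most abundant tag, asporin's ratio was 1.18 and not called. Its relatives lumican (Lum), with 915, 658 and 1976 tags (ratio 1.57), and decorin (Dcn), with 1328, 896 and 1981 (ratio 1.13), share the pattern of a low at day 1 and a high at day 2. Mmp3, a matrix-degrading protease, had 85, 143 and 430 tags (ratio 1.57). The crosslinking enzymes Lox (148 and 375 tags, ratio 1.32) and Loxl1 (72 and 174, ratio 1.25), the matricellular proteins Thbs1 and Thbs2, the protease Adamts5 and the receptor Pdgfrb were also called higher. Vim, with 1466, 195 and 910 tags (ratio 2.20), rests on 1 tag as given above. The fibrillar collagens were not called, with Col1a1 at 909 and 1179 tags (ratio 0.36), Col1a2 at 2121 and 2968 (ratio 0.47) and Col3a1 at 392 and 659 (ratio 0.73), and of 19 basement membrane genes 0 were called (median 0.17). Apod, a lipid carrier of fibroblasts and nerve sheaths, had 380, 919 and 2065 tags (ratio 1.15), higher on each later day.

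**Figure D5:**
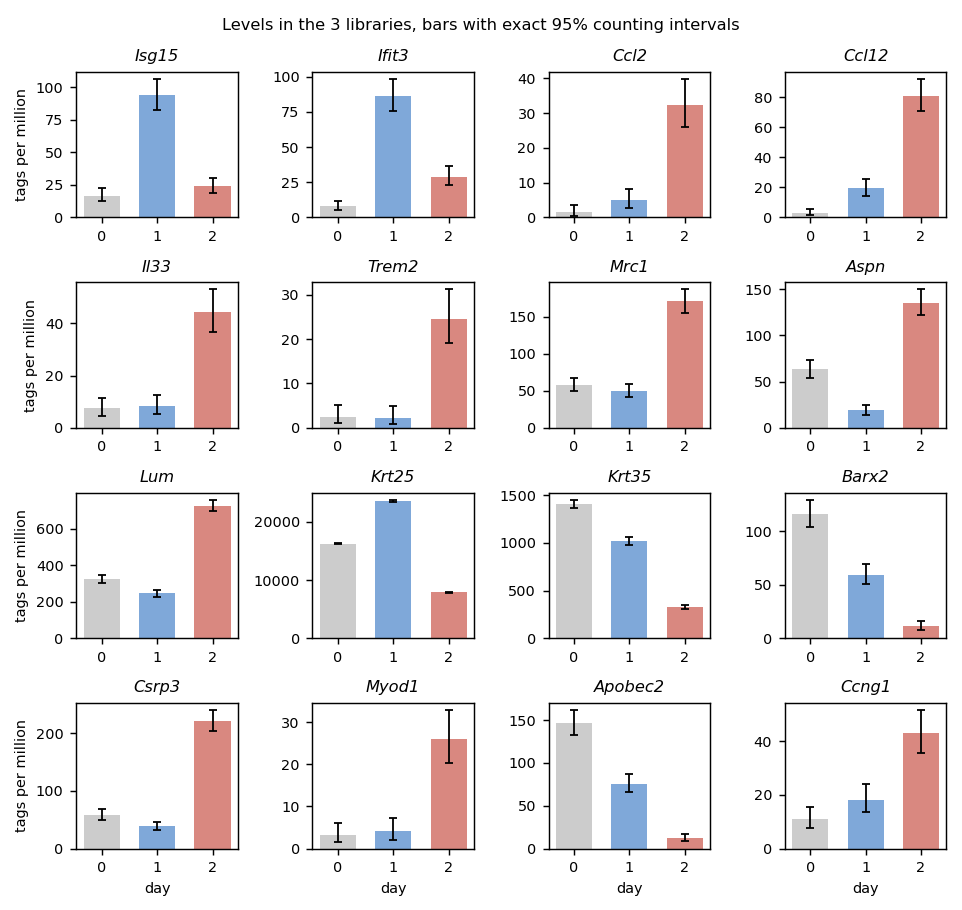
Level in tags per 1000000 of 16 genes at days 0, 1 and 2 (grey, blue and red bars, 1 library each), each axis starting at 0, with exact 95% Poisson intervals of counting error. Isg15 and Ifit3 peak at day 1, Ccl2, Ccl12, Il33, Trem2, Mrc1, Csrp3 and Myod1 are highest at day 2, Krt35, Barx2 and Apobec2 are lower on each later day, and Krt25 is highest at day 1 and lowest at day 2.

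Red cell transcripts fell between the 2 days. Reticulocytes, the young red cells in blood, still carry haemoglobin RNA. Of 11 clusters tested, 6 were called lower (54.5%, beside 1.10% of all clusters) and 0 higher. The summed level was 2532 CPM at day 0, 2423 at day 1 and 731 at day 2. The cluster of the alpha-globin copies Hba-a1 and Hba-a2, which share its main tag, had 4942, 4194 and 361 tags and a ratio of -3.55 (-3.71 to -3.40). Separate clusters of Hba-a1 (67 and 4 tags on the treated days) and Hba-a2 (51, then none listed) were also called lower. Alpha-globin therefore made several of the 6 calls. Beta-globin, in a cluster shared by Hbb-bs and Hbb-bt, went from 41 to 4 tags, and Alas2, the erythroid enzyme that starts the haem pathway, from 69 to 17 (ratio -2.01). Bpgm, the red cell enzyme that makes bisphosphoglycerate, went from 406 to 186 (ratio -1.14). Genes of wider expression on this list did not follow, with Tfrc at 40 and 29 tags and Bnip3l at 1044 and 959. The platelet chemokine Pf4 had 123, 63 and 140 tags at days 0, 1 and 2 (ratio 1.13), whereas Itga2b had 55 and 29 on the treated days. The amount of blood in each sample was not tested.

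Of 35 genes tested from a list of p53 targets, 1 was called higher (2.86%, beside 1.80% of all clusters) and 0 lower. The call was cyclin G1 (Ccng1) with 31, 49 and 117 tags (ratio 1.23, 0.75 to 1.75). Sfn, called lower and given below with the epidermal genes, was not on this list. The median of the list was -0.13 and reached 0.00 under another scaling. The cell cycle inhibitor Cdkn1a had 97, 91 and 91 tags, Mdm2, the ligase that removes p53, 122, 93 and 120, and Perp, a desmosomal target, 606 and 307, short of a call. Mgmt, which removes alkyl groups from guanine, had 5, 99 and 78 tags at days 0, 1 and 2, so its level on the treated days did not differ beyond counting error (ratio -0.36, -0.81 to 0.08). In the DNA repair list 2 of 44 were called higher (4.55%) and 1 lower (2.27%, beside 1.10%). Rev3l, the catalytic subunit of a translesion polymerase, went from 25 to 74 tags and Xrcc3, a recombination factor, from 13 to 44, while the ligase Lig3 went from 62 to 23. Among 20 cell death regulators outside the p53 list 0 were called.

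Of 41 mitosis genes tested 0 were called, with a median of 0.07 (-0.09 to 0.31) and summed levels of 1715 and 1830 CPM on the treated days against 1803 at day 0. Mki67 had 239, 156 and 218 tags (ratio 0.46, 0.16 to 0.77), Top2a 72, 50 and 63, and the mitotic kinase Cdk1 624 and 603 on the treated days. Of 45 S phase genes 1 was called lower (2.22%, beside 1.10%), the transcription factor E2f2, from 119 to 51 tags (ratio -1.23).

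Of 37 epidermal differentiation genes tested, 2 were called lower (5.41%, beside 1.10% of all clusters) and 1 higher (2.70%, beside 1.80%), with a median of -0.17. Tgm1, the enzyme that crosslinks the cornified envelope, had 506, 895 and 358 tags (ratio -1.34) and the desmosomal cadherin Dsc1 went from 248 to 107 (ratio -1.23), while the interfollicular keratin Krt2 had only 9 and 46 tags (ratio 2.27). Krt10, the main suprabasal keratin, had 26723 and 22980 tags (ratio -0.24). Stratifin (Sfn), a keratinocyte member of the phosphoserine-binding adaptor proteins, went from 13632 to 6422 (ratio -1.10). Of 19 genes of stressed or inflamed epidermis, Sprr1b fell from 494 to 220 tags (ratio -1.18), while Klk6 and Serpinb3b rose, with ratios of 1.01 and 1.83. Krt16 had 324, 816 and 730 tags (ratio -0.18).

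Lipid genes were mixed. Elovl6, which elongates fatty acids in sebaceous glands and fat, had 1201, 791 and 1700 tags (ratio 1.09, all 8 tags in one direction), whereas the desaturase Fads2 had 259, 122 and 51 (ratio -1.27). Of 34 adipocyte genes 2 were called lower (5.88%, beside 1.10% of all clusters), the imprinted gene Nnat (45 and 4 tags) and Dgat2 (52 and 19). Adipoq had 399 and 324 tags. Mvk, a cholesterol pathway kinase, was the only call of 27 (3.7%), lower from 186 to 82 tags. Of 48 drug detoxification and antioxidant genes 3 were called lower (6.25%) and 1 higher (2.08%, beside 1.80% of all clusters). Aldh1a3 fell from 209 to 61 tags (ratio -1.79), Selenbp1 from 279 to 83 (ratio -1.76) and the squamous metallothionein Mt4 from 376 to 170 (ratio -1.16). Gpx8, an endoplasmic reticulum peroxidase, had 273, 133 and 318 tags at days 0, 1 and 2 (ratio 1.24).

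Of the remaining genes named for the size of their ratio, the zinc and manganese importer Slc39a8 went from 76 to 8 tags (ratio -3.19), the microtubule nucleation factor Mzt2 from 61 to 8 (ratio -2.87), the potassium channel gene Kcnk16 from 422 to 64 (ratio -2.73), the tubulin Tubb3 from 149 to 28 (ratio -2.41), the immediate early gene Ier3 from 110 to 21 (ratio -2.38), the gene of threonine dehydrogenase (Tdh, by shared tags) from 114 to 24 (ratio -2.24) and Fbp1, an enzyme of gluconeogenesis, from 1777 to 434 (ratio -2.05). In the other direction the phosphatase Ppm1a had 56, 10 and 77 tags at days 0, 1 and 2 (ratio 2.87). Ptx3, a secreted pattern recognition protein, went from 3 to 47 tags (ratio 3.75). The lymphatic receptor Lyve1 rose from 21 to 103 tags (ratio 2.25), the only call of 26 endothelial genes (3.85%, beside 1.80% of all clusters). The vasodilator peptide adrenomedullin (Adm) rose from 25 to 110 (ratio 2.10). The histone gene H2afj went from 1366 to 469 (ratio -1.56). Among complexes that every cell uses, 1 of 55 clusters of mitochondrial ribosomal proteins was called lower (1.82%, beside 1.10% of all clusters). It was Mrps17, from 247 to 102 tags (ratio -1.29). None was called among the others measured: 0 of 35 cytosolic ribosomal proteins (median -0.37), 0 of 31 proteasome subunits (median -0.21) and 0 of 55 respiratory chain clusters (median -0.16).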

How the data were processed

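Polyadenylated RNA of whole skin was turned into NlaIII tags and read by an Illumina sequencer, per the labels' protocols. Per the file headers, the deposited tables hold each UniGene cluster's raw tag count, the copy number of each tag and TPM, the count per 1000000 of all tags the authors kept (no length correction). The tables hold 47.1% and 46.5% of the kept tags at days 1 and 2. The aligner and builds are not stated in the labels. No tag is listed with a copy number under 2, so an unlisted gene need not have had 0 tags. It was tested as 0, entered medians with the pseudocount, and gets no ratio.

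Counts were analysed as deposited. Names came from exact matches of the 21-base tags to GENCODE M21 (15076 clusters), with 766 by tags shared between genes, 194 by RefSeq accession and 4559, with 4.86% of tags, unnamed. Whether the authors' counting used strand is not given here, so overlapping genes are uncertain. Library sizes were scaled by edgeR 4.0.16's TMM over the 3 libraries (factors 1.03, 0.94 and 1.03). With 1 library a group edgeR's quasi-likelihood test has no residual degrees of freedom, so a two-sided exact conditional binomial test on the 2 libraries was adjusted over the 13812 clusters. Intervals of single genes cover counting error only, those of list medians the spread over members only, and PCR copies were not removed. The test was tried on simulated libraries that held counting error alone, with no variation between mice, so it does not give the power in real skin. Of 50 clusters changed 4-fold it called 29, and 26 of the 27 at 20 CPM or more, and of 50 changed 2.5-fold it called 25.

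The members of the 53 gene lists were chosen with earlier results of these data known, and no list is independent support for its direction. Named were the 15 largest ratios each way at 20 CPM or more, up to 6 called members of each list, the 5 genes each way with the most tags gained or lost, and a fixed set; other genes were named after their values were seen. Scaling, filters, tag choice, the fold limit and an assumed variation between mice were varied. Some called or measured members of the lists are counted but not reported by name here.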

Additional observations from a re-analysis of the deposited data

How the results depend on the processing

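No paired analysis was possible because each group holds 1 library, and no replicate could be left out. Of the 249 clusters called higher and 152 lower, scaling by DESeq2 size factors kept 242 and 152 and called 159 lower in all. Scaling by all kept tags, by assigned tags and by assigned tags outside hair and muscle genes moved the share of calls that were higher from 62.1% to 76.6%, 78.8% and 73.2%, and assigned tags left 100 called lower. The 3′-most site alone gave 212 and 100, and leaving out each cluster's most abundant tag gave 44 and 43 among 6270 clusters. A minimum ratio of 1.5 gave 476 and 430, and one of 4 gave 64 and 27. With an assumed coefficient of variation of 0.2 there were 57 and 33, and with 0.4 there were 2 and 0. Without the most abundant tag the median was 1.51 for the 7 chemokine and cytokine clusters left of 27. It was 1.20 for the 12 complement clusters left of 23. Calls in that setting fell to 3 chemokines or cytokines, 2 complement genes, 1 of 12 macrophage markers and 0 of 9 interferon-induced genes. They fell to 1 of 6 erythroid clusters, 5 of 20 inner root sheath genes, 5 of 13 muscle stress genes and 2 of 40 fibroblast genes. By all kept tags, assigned tags and assigned tags outside hair and muscle genes, the median of keratin-associated proteins was 0.21, 0.23 and 0.19; by the first 2 of these, that of sarcomere genes was 0.73 and 0.75. Medians near 0 changed sign with the scaling for 10 lists, among them adipocyte, dermal papilla and outer root sheath genes. Of 121 named genes called and listed on both days, 54 lost the call or turned direction under at least 1 of the scaling, filter and tag settings, the fold limits and the assumed variation not being counted here. Those that turned direction were 5: Krtap10-4 on tags of 1 gene (0.14) and, without the most abundant tag, Per3 (-0.27), Procr (0.49), Tpm1 (-0.21) and Vim (-0.35). The cause was not tested. A gene left with too few tags in a setting, or with none on 1 of the days, was skipped there. Ccl2, Ccl12, Trem2 and Ifit3, each read by 1 tag, could therefore not lose a call without their most abundant tag. Hence the named genes outside the 54 were not all tried in every setting. At these depths genes below 20 CPM are often missed.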
